A study of Mus musculus with 6 samples.

Results

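The 10 genes described here encode signalling adaptors, cell-surface receptors and a kinase of myeloid cells: the adaptors Tyrobp, Fcer1g and Hcst, the Fc receptors Fcgr1, Fcgr2b, Fcgr3 and Fcgr4, the paired Ig-like receptor Pirb, the activating receptor Tarm1 and the tyrosine kinase Syk. They were taken by symbol from a deposited table of 54532 genes, and each symbol matched 1 row. RNA was sequenced from 32D cells, a mouse myeloblast-like line that was grown in serum with interleukin-3. Human U2AF1 had been brought in by a retrovirus that also encodes GFP, as the wild-type sequence (WT) or as the S34F mutant (S34F). The titles write the groups with the mouse symbol, as U2af1 S34F and U2af1-WT, while the treatment text names the human sequence as the insert. There were 3 libraries in each of the 2 groups, and wherever 3 values are given they follow the order of replicates 1, 2 and 3. Counts per mouse gene do not show which human allele a library carries, so the labels were taken as given. Whether the transduced cells were sorted, pooled or cloned, and whether replicates were separate cultures, is not given in the sources used here, so errors measure the spread between these libraries.

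The genes were chosen with the difference between S34F and WT already known. Their values in that comparison are therefore a description, no p-value is attached to them, and nothing is read from how many of them passed a threshold. The wording "past the threshold" means a Benjamini-Hochberg adjusted p under 0.05 in the edgeR quasi-likelihood test fitted over all 13444 genes that passed the filter on low counts.

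Receptors of this family mostly have short cytoplasmic tails and borrow their signal from adaptor proteins that sit beside them in the membrane. Tyrobp, also called DAP12, and Fcer1g, the gamma chain shared by several Fc receptors, carry an ITAM, a pair of tyrosines that SRC family kinases phosphorylate and that Syk then binds through its SH2 domains. Inhibitory receptors such as Fcgr2b and Pirb instead carry ITIMs, single tyrosines that recruit the phosphatases SHP-1 or SHIP-1 when phosphorylated. In neutrophils, monocytes and mast cells the balance of these signals sets the response to immune complexes.

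The stretches of coding sequence that carry the signalling motifs known for the adaptors and the inhibitory receptors are shown first, because the genes are ordered by these roles. They were read 5' to 3' from the GENCODE M21 transcript of the principal isoform, and positions count codons from the start codon. Capitals mark the codons of the tyrosines and of the other fixed positions of the motif. In Hcst (DAP10), which has no ITAM and recruits phosphoinositide 3-kinase, they mark the tyrosine and methionine codons of its motif. The Tyrobp stretch spans codons 92 to 106 of 114, that of Fcer1g codons 65 to 79 of 86, and that of Hcst codons 72 to 75 of 79. The Fcgr2b stretch begins at codon 317 of 340 and the pair from Pirb at codons 792 and 822 of 841. Pirb had further matches before this pair, at codons 107 and 711, which are not printed.
Tyrobp, ITAM: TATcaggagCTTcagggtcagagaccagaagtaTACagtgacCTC
Fcer1g, ITAM: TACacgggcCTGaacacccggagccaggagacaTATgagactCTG
Hcst, phosphoinositide 3-kinase motif: TACatcaacATG
Fcgr2b, ITIM: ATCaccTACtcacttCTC
Pirb, ITIM from codon 792: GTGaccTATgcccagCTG
Pirb, ITIM from codon 822: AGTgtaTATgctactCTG

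The ITAM was searched in frame as a tyrosine codon, any 2 codons and a leucine or isoleucine codon, then 6 to 12 codons and the same 4 again. Of the 10 principal isoforms, those of Tyrobp and Fcer1g held it, and 6.5% of 21617 coding genes did. The principal isoforms of Fcgr1, Fcgr3, Fcgr4 and Tarm1, which are the activating receptors, held none. Fcer1g had 2 complete coding transcripts in the annotation, and 1 of them held the ITAM; counts per gene do not tell them apart. The ITIM pattern was common, with a match in 49.0% of coding genes, and among the members it also matched in Fcgr1 (3 matches), Fcgr4, Tarm1, Tyrobp and Fcer1g (1 each). The pattern of Hcst matched in 24.8% of coding genes and 3 times in Syk. These short patterns alone therefore do not separate the roles, and a match is only a description.

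Several of these genes lie close together on the mm10 build. Tyrobp (ENSMUSG00000030579, chromosome 7, 30413760 to 30417585, plus strand) and Hcst (ENSMUSG00000064109, chromosome 7, 30417712 to 30419854, minus strand) are transcribed towards each other with 126 bases between their ends. Fcgr2b (ENSMUSG00000026656, 170958617 to 170976547), Fcgr4 (ENSMUSG00000059089, 171018920 to 171029761), Fcgr3 (ENSMUSG00000059498, 171051174 to 171064935) and Fcer1g (ENSMUSG00000058715, 171229572 to 171234365) follow each other on chromosome 1. Tarm1 (ENSMUSG00000053338, 3486500 to 3502624) and Pirb (ENSMUSG00000058818, 3711409 to 3720391) are on the minus strand of chromosome 7 near its start. Fcgr1 (ENSMUSG00000015947, 96282909 to 96293969) is on chromosome 3 and Syk (ENSMUSG00000021457, 52583173 to 52648792) on chromosome 13. Exons of Fcgr2b overlapped those of an antisense gene, Gm38204, over 155 bases, and no other member shared exon bases with another gene.

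Totals lay between 16509899 and 19129250 counts per library, and 1 count equalled 0.0519 to 0.0607 CPM, the count scaled to library size by TMM. WT replicates 2 and 3 formed the closest pair by far, their biological coefficient of variation being 3.16% where other pairs of like genotype had 16.5% to 21.5%. They still differed by more than sampling noise, with a chi-square of 2.3 per degree of freedom, and were kept as 2 libraries; summed as 1, 20 genes were past the threshold in place of 293, among them 3 of the members (Tyrobp, Fcer1g and Tarm1) in place of 5. Over all genes tested 213 were higher and 80 lower in S34F. Of the markers of myeloblasts and promyelocytes, Ctsg, Myb and Spi1 lay between 120 and 395 CPM in every library. Prtn3 was lower, at 22.25 to 51.63 CPM, as were Mpo at 2.98 to 15.8 CPM and Ms4a3 at 0.060 to 4.68 CPM. Cebpa was at 0 in all 6 libraries and Kit, Cd34 and Elane stayed at or below 0.486 CPM, so part of this list was absent from the labelled cell type. Markers of NK and T cells summed to at most 6.82 CPM and those of B cells to at most 3.71 CPM, and the defining genes Ncr1, Klrb1c, Cd3e, Cd3g and Ms4a1 were at 0 in every library.

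Of the 10 genes, 9 passed the filter on low counts, and Fcgr4 did not. In the fit 5 of the 9 were past the threshold, all of them higher in S34F, namely Tyrobp, Fcer1g, Tarm1, Fcgr1 and Pirb; over all genes tested 1.58% were past it and higher. Hcst, Fcgr2b, Fcgr3 and Syk were not past it. DESeq2 put 7 of the 9 past its threshold, where 9.04% of all genes were, and limma-voom 5, where 2.01% were. The 3 S34F libraries lay above all 3 WT libraries in 8 of the 9 genes, Syk being the exception, against 14% of all genes tested. Because the genes were picked from this comparison, these shares are given side by side only.

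**Figure D1:**
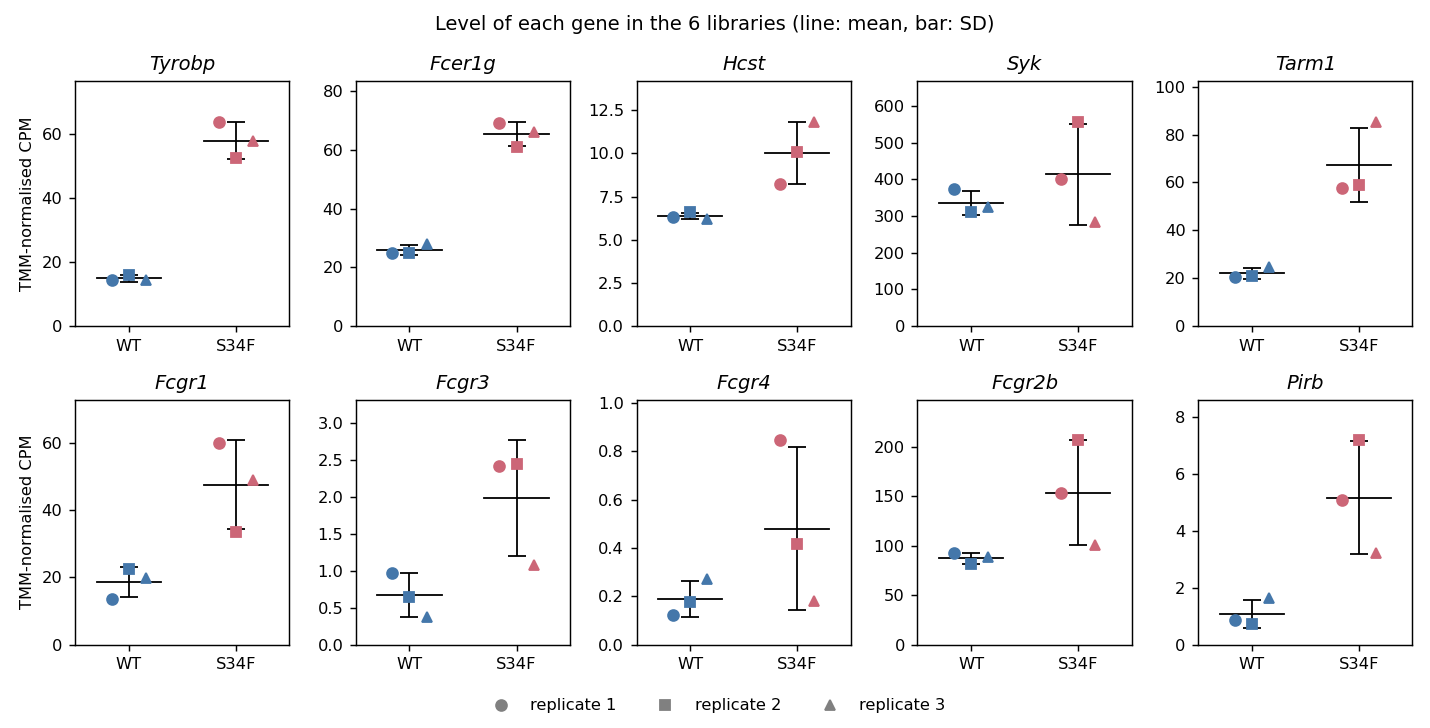
TMM-normalised CPM of each of the 10 genes in the 3 WT libraries (blue) and the 3 S34F libraries (red), with the replicate shown by the marker, the mean by a line and the SD by a bar; each panel has its own axis from 0. Tyrobp lies between 52.5 and 63.9 CPM in S34F and between 14.3 and 16.1 CPM in WT, whereas the Syk values of the groups overlap.

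The ITAM adaptors differed most evenly between the groups. Tyrobp stood at 63.9, 52.5 and 57.8 CPM in S34F, against 14.3, 16.1 and 14.4 CPM in WT. Every S34F library was at least 3.27 times as high as the highest WT library, and the fold change was 3.89 (log2 1.96 ± 0.13, SE, n = 3 per group). Its group means were 58.1 ± 5.70 CPM in S34F and 14.9 ± 0.993 CPM in WT (SD, n = 3).

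Fcer1g, which carries signals of Fcgr1, Fcgr3, Fcgr4 and Tarm1, stood at 69.1, 60.9 and 66.1 CPM in S34F, against 24.9, 24.8 and 28.0 CPM in WT. The groups did not overlap, and the fold change was 2.52 (log2 1.34 ± 0.12, SE, n = 3 per group). The coefficient of variation of Fcer1g was 6.41% in S34F and 7.11% in WT, the lowest of the 10 genes in S34F. In both adaptor genes S34F replicate 1 was highest and S34F replicate 2 lowest.

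Hcst, the neighbour of Tyrobp and the adaptor without an ITAM, differed less. It had 146, 194 and 198 counts in S34F and 104, 112 and 115 in WT, which were 8.23, 10.1 and 11.8 CPM against 6.32, 6.59 and 6.21 CPM. The groups did not overlap, but S34F replicate 1 was only 1.25 times the highest WT library. The fold change was 1.57 (log2 0.65 ± 0.20, SE, n = 3 per group) and did not pass the threshold. DESeq2 put Hcst past its own threshold, which 5.55% of all genes reached in that direction. Among the S34F libraries replicate 3 was highest and replicate 1 lowest.

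Ratios within a library show how the adaptors stood to each other, from levels divided by exon length. Tyrobp over Fcer1g was 1.21, 1.13 and 1.145 in S34F and 0.751, 0.850 and 0.674 in WT. The groups did not overlap, and this held for any lengths, which scale all libraries alike. Which of the 2 genes was higher in S34F did depend on the length: with the longest transcript of each gene, an alternative chosen after seeing the data, the ratio was 1.06, 0.987 and 0.9996 in S34F and 0.656, 0.742 and 0.589 in WT. Tyrobp over Hcst was 8.41, 5.64 and 5.30 in S34F against 2.45, 2.64 and 2.51 in WT.

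Syk, the kinase that docks on phosphorylated ITAMs, did not follow the adaptors. It stood at 400.1, 557 and 284 CPM in S34F, against 373, 310 and 326 CPM in WT. S34F replicates 1 and 2 were above and S34F replicate 3 below every WT library, so the S34F values lay on both sides of the WT range. The fold change was 1.23 (log2 0.30 ± 0.22, SE, n = 3 per group) and did not pass the threshold. Without S34F replicate 2 the log2 fold change was 0.03 and without S34F replicate 3 it was 0.51, so single libraries set its size.

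The summed level of both ITAM adaptors over that of Syk, per exon length, was 4.09, 2.49 and 5.35 in S34F and 1.25, 1.58 and 1.54 in WT. All 3 S34F libraries were above the WT libraries. The means were 3.98 ± 1.43 and 1.46 ± 0.179 (SD, n = 3), and the S34F libraries differed among themselves by more than the gap from the lowest of them to WT. With the longest transcripts as lengths the means were 2.72 ± 0.977 and 1.01 ± 0.124.

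**Figure D2:**
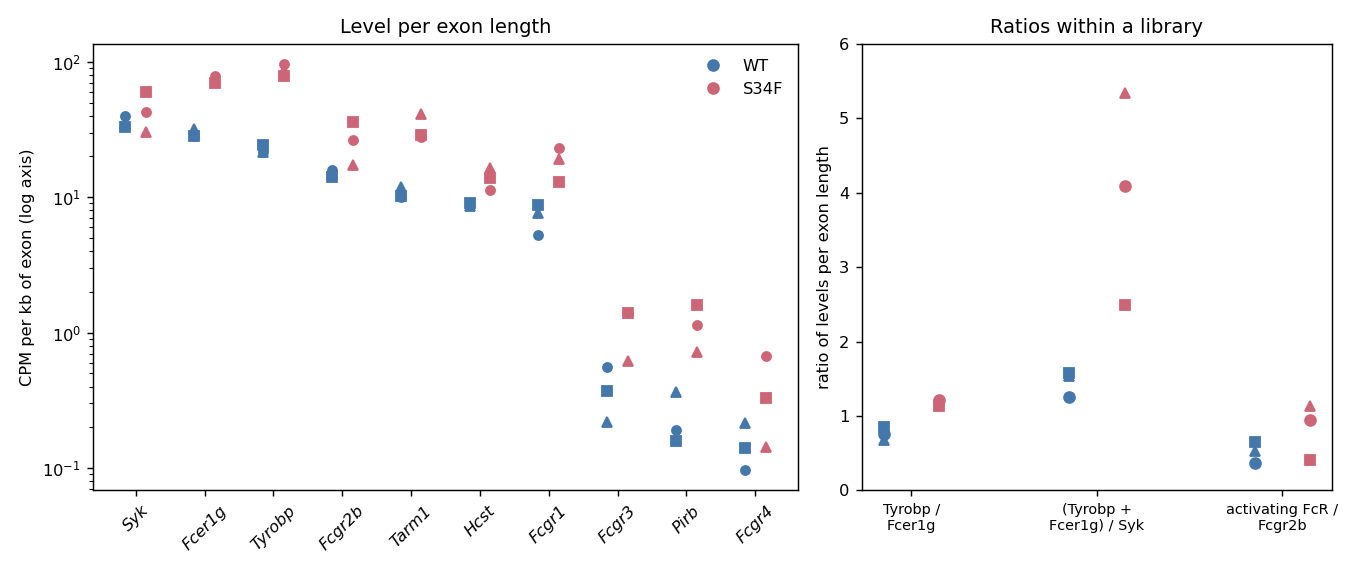
Left, level of each gene per kilobase of exon on a log axis, in the order of the WT means; right, ratios of such levels within a library. Blue is WT and red S34F, and circle, square and triangle are replicates 1, 2 and 3; the adaptors over Syk lie between 1.25 and 1.58 in WT and between 2.49 and 5.35 in S34F.

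Among the activating receptors, Tarm1, which signals through Fcer1g, had a mean of 67.3 ± 15.6 CPM in S34F and 22.1 ± 2.25 CPM in WT (SD, n = 3). It stood at 57.6, 59.0 and 85.3 CPM in S34F, against 20.6, 21 and 24.7 CPM in WT. The groups did not overlap, S34F replicate 3 was highest, and the fold change was 3.05 (log2 1.61 ± 0.18, SE, n = 3 per group).

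Fcgr1 encodes the high-affinity receptor for IgG. It stood at 60.01, 33.6 and 49.1 CPM in S34F, against 13.7, 22.5 and 19.8 CPM in WT. The lowest S34F library, replicate 2, was 1.49 times the highest WT library, and the fold change was 2.55 (log2 1.35 ± 0.25, SE, n = 3 per group). This gene was no longer past the threshold without S34F replicate 1, S34F replicate 3, WT replicate 2 or WT replicate 3, where its log2 fold change was 1.14, 1.33, 1.51 and 1.39, nor with the trend of counts with GC content removed, where it was 1.29, nor with WT replicates 2 and 3 summed, where it was 1.44.

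The low-affinity activating receptors were near the limit of counting. Fcgr3 had 43, 47 and 18 counts in S34F and 16, 11 and 7 in WT. S34F replicate 3, at 1.07 CPM, was close to WT replicate 1, at 0.972 CPM. On the log2 scale the difference was 1.58 ± 0.47 (SE, n = 3 per group) and did not pass the threshold. Of the 50-base words of its longest transcript, 12.8% also occur in Fcgr2b, whose level was far higher, so some Fcgr3 counts may belong to either gene.

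Fcgr4 had 15, 8 and 3 counts in S34F and 2, 3 and 5 counts in WT, and was not tested. Only S34F replicates 1 and 2 lay above all WT libraries. Relative to library totals, the 26 summed S34F counts were 2.46 times the 10 of WT, and the exact interval at 95% confidence, which covers counting error only, ran from 1.15 to 5.71.

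The inhibitory Fc receptor Fcgr2b stood at 154, 206 and 101 CPM in S34F, against 92.1, 81.4 and 88.1 CPM in WT. S34F replicate 3 was only 1.09 times the highest WT library. The fold change was 1.76 (log2 0.82 ± 0.23, SE, n = 3 per group) and did not pass the threshold; DESeq2 put it past its own, which 5.55% of all genes reached in that direction. Some 50-base words of its longest transcript, 12.5% of them, also occur in other genes.

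Activating over inhibitory Fc receptors, taken as Fcgr1, Fcgr3 and Fcgr4 together over Fcgr2b per exon length, gave 0.952, 0.413 and 1.14 in S34F. The ratio was 0.373, 0.655 and 0.530 in WT. S34F replicate 2 lay inside the WT range, so this balance did not separate the groups. With the longest transcripts as lengths the ratio was 0.592, 0.260 and 0.701 in S34F and 0.235, 0.406 and 0.327 in WT, and S34F replicate 2 again lay inside the WT range.

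Pirb, an inhibitory receptor that binds MHC class I, had the largest fold of the 9 tested genes from a low level. It had 90, 138 and 54 counts in S34F and 14, 12 and 30 in WT, or 5.07, 7.17 and 3.22 CPM against 0.850, 0.706 and 1.62 CPM. The groups did not overlap, and the fold change was 4.82 (log2 2.27 ± 0.42, SE, n = 3 per group). It was past the threshold with all 6 libraries and without WT replicate 1, but not when any other library was left out, where its log2 fold change lay between 1.96 and 2.72, nor with WT replicates 2 and 3 summed, where it was 2.31.

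Pirb belongs to a cluster of near-identical genes. Of the 50-base words of its longest transcript, 37.3% occur in other genes, inside or outside that cluster. Lilra6, a relative, shares 14.7% of the words, and many genes outside the cluster share few, such as Rock2 with 1.43%. The 9 relatives that share at least 5% of these words had 76, 101 and 42 counts in S34F and 20, 32 and 26 in WT. Summing them with Pirb gave 166, 239 and 96 counts in S34F against 34, 44 and 56 in WT, a log2 fold change of 1.84 that was past the threshold. How the counts divide between Pirb and these relatives is uncertain.

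**Figure D3:**
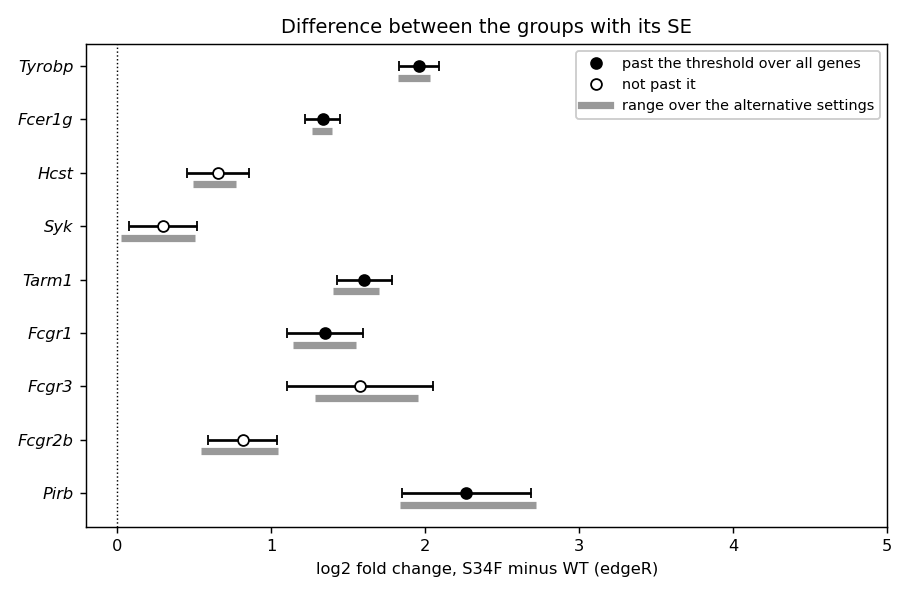
Fitted log2 fold change of the 9 tested genes with its SE, filled where the gene was past the threshold over all genes and open where it was not; grey bars give the lowest and highest value over the alternative settings. All 9 values are above 0 under every setting, and Syk reaches down to 0.03.

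The S34F libraries were not alike, and the genes fell into different orders among them. Relative to the WT mean, on the log2 scale, Fcgr2b was 0.82, 1.24 and 0.21, Pirb 2.29, 2.78 and 1.64, Fcgr3 1.87, 1.88 and 0.73 and Syk 0.26, 0.73 and -0.24 in S34F. In these 4 genes S34F replicate 2 was highest and S34F replicate 3 lowest. Tyrobp, Fcer1g and Fcgr1 had replicate 1 highest and replicate 2 lowest, and Hcst and Tarm1 had replicate 3 highest and replicate 1 lowest. The labels give no batch that marks these libraries.

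Summed markers of neutrophils, and those of erythroid cells and megakaryocytes, were higher in every S34F library than in WT. For monocytes and macrophages the groups overlapped, with S34F replicate 3 just below WT replicate 1. The 11 monocyte and macrophage markers summed to 1106, 1216 and 454 CPM in S34F and to 457, 350.0 and 343 CPM in WT, of which Lyz2 made up 802, 855 and 191 and 222, 107 and 106 CPM. As in Fcgr2b, Pirb, Fcgr3 and Syk, S34F replicate 2 was highest and replicate 3 lowest. Of the 5 tested markers of this list all had a positive log2 fold change, with a median of 1.47. By edgeR 0 passed the threshold and 4 had an unadjusted p under 0.05, and calls numbered 2 with DESeq2, 1 with limma-voom. Over all 13444 genes tested, 50.1% had a positive log2 fold change and 2958 had an unadjusted p under 0.05 by edgeR. DESeq2 called 9.04% of them and limma-voom 2.01%. Cd68, a lysosomal protein of macrophages, stood at 32.4, 32.2 and 32.0 CPM in S34F, against 19.9, 7.53 and 7.45 CPM in WT, and Cd14, a receptor for bacterial lipopolysaccharide, at 22.8, 11.7 and 2.92 CPM against 6.56, 1.18 and 1.19 CPM. Ly6c2 and Cd163 were at 0 in every library. The 11 neutrophil markers summed to 387 to 673 CPM in S34F and 83.0 to 107 CPM in WT, nearly all of it Lcn2, which rose 6.42-fold (log2 2.68 ± 0.22, SE, edgeR adjusted p = 0.00292, and 0.0153 with WT replicates 2 and 3 summed). Of the rest S100a8 stood at 12.1, 1.92 and 0.775 CPM in S34F, against 3.28, 1.88 and 1.78 CPM in WT. S100a9 stood at 5.24, 1.14 and 0.775 CPM against 1.94, 0.647 and 0.540 CPM. In both genes only S34F replicate 1 was above every WT library. Mmp9 stood at 0.845, 3.06 and 0.358 CPM against 0.243, 0.0588 and 0.108 CPM. Ngp went the other way, at 1.01, 0.416 and 0 CPM against 0.911, 0.647 and 1.46 CPM (log2 -1.06). Retnlg was at 0, and Ltf, Camp, Cxcr2, Mmp8 and Ly6g stayed at or below 0.432 CPM. The 9 erythroid and megakaryocyte markers summed to 750 to 877 CPM in S34F and 587 to 617 CPM in WT, mostly Itga2b. Of its 6 tested markers 5 had a positive log2 fold change, 0 passed edgeR, 3 had an unadjusted p under 0.05, and calls numbered 2 with DESeq2, 1 with limma-voom. Pf4, a platelet chemokine, stood at 35.6, 40.0 and 41.7 CPM in S34F, against 24.2, 10.1 and 8.59 CPM in WT. Gp9, the only tested marker of this list with a negative log2 fold change (-1.05), stood at 0.620, 1.35 and 0.477 CPM against 1.15, 2.41 and 1.57 CPM. The part of these cell types in the members' values was not tested. In libraries of many cells, more cells that express a gene and more RNA of it per cell cannot be told apart.

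**Figure D4:**
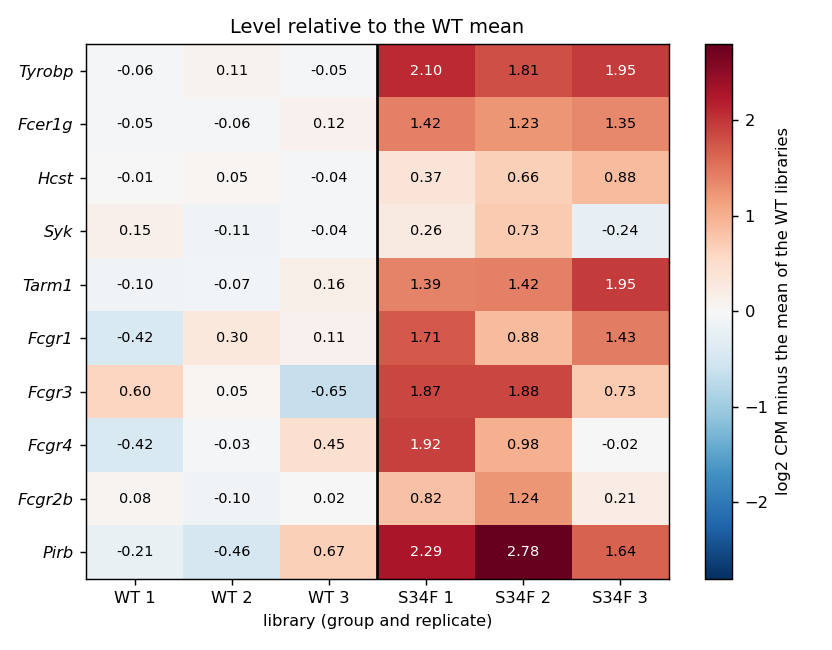
Log2 CPM of each gene in each library minus the mean of the 3 WT libraries, with the value written in each cell. The rows of Tyrobp and Fcer1g are even over the S34F libraries, between 1.81 and 2.10 and between 1.23 and 1.42, while Syk runs from -0.24 to 0.73.

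Levels of different genes were compared per kilobase of exon. In WT the order of the means was Syk, Fcer1g, Tyrobp, Fcgr2b, Tarm1, Hcst, Fcgr1, Fcgr3, Pirb and Fcgr4, from 35.9 ± 3.48 for Syk to 0.151 ± 0.0598 CPM per kb for Fcgr4 (SD, n = 3). Hcst and Fcgr1 overlapped, as did Fcgr3 with Pirb and Pirb with Fcgr4, and the other neighbours did not. In S34F Tyrobp came first at 87.1 ± 8.55 CPM per kb and Fcer1g next at 74.8 ± 4.795, overlapping each other and both above Syk at 44.2 ± 14.6. Below them Syk, Tarm1, Fcgr2b, Fcgr1 and Hcst each overlapped the next in order. Pirb, Fcgr3 and Fcgr4 were the lowest in both groups. These levels divide by all exon bases of a gene, 9362 for Syk, whose longest transcript has 5363. Divided by the longest transcript, the S34F means were 97.3 ± 9.55 for Tyrobp, 95.7 ± 6.14 for Fcer1g and 77.2 ± 25.5 CPM per kb for Syk, and Syk in S34F replicate 2, at 103.9, was above Fcer1g and within the range of Tyrobp.

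Likeness had a fixed measure, Pearson's r across the 6 libraries with the mean log2 CPM of Tyrobp and Fcer1g. It was taken over 8483 tested genes averaging 10 CPM or more, with members and predicted or clone-based symbols left out. The 6 nearest of these were Capg, Tuba8, Rcor2, Arf6, Uap1l1 and Rxrb. Their r lay between 0.996 and 0.998, and this is a description, since a gene with any even difference between the groups scores high. Capg, an actin-capping protein gene, stood at 100.4, 95.6 and 100.6 CPM in S34F, against 41.7, 42.7 and 44.7 CPM in WT. Tuba8, an alpha tubulin gene, reached a like r with a fold change of only 1.22. Among the members r was 0.968 for Tarm1, 0.932 for Fcgr1, 0.909 for Pirb and 0.881 for Hcst, and 0.345 for Syk.

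The windows before the gene starts are shown because several of these genes are known targets of PU.1, the myeloid transcription factor encoded by Spi1. RefSeq start sites on GRCm38.p6 gave windows of 250 bases for 9 of the 10 genes, all but Tyrobp. GAGGAA, the core of the PU.1 motif, was found on either strand in 7 of the 11 windows of these genes and in 23.3% of 32817 such windows. The 7 belong to 6 genes, namely Fcgr1, Fcgr3 (both windows), Fcgr4, Pirb, Tarm1 and Syk (1 of 2 windows). The windows of Fcgr3 overlap almost fully, from 171059395 to 171059644 and from 171059404 to 171059653, so each of its matches is 1 site counted in both. The longer GAGGAAGT, which contains that core, was found before Fcgr4 and Pirb and in 2.44% of all windows. The C/EBP motif TTGCNNAA matched in both windows of Fcgr3 (9.57% of all windows) and the RUNX motif TGTGGT before Fcgr4 (14.0% of all windows). The windows of Fcer1g, Fcgr2b and Hcst held no match to these letters. Both Pirb and Fcgr4, with the longer motif, and Fcer1g, without a match, are printed 5' to 3' on the strand of the gene, and capitals mark matches to any of these motifs on either strand.
Pirb, chr7:3720383-3720632, minus strand: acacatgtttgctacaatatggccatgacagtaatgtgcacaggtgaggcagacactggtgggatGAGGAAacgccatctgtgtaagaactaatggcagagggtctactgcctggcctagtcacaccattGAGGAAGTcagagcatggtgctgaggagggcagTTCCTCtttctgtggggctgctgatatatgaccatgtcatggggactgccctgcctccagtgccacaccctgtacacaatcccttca
Fcgr4, chr1:171018676-171018925, plus strand: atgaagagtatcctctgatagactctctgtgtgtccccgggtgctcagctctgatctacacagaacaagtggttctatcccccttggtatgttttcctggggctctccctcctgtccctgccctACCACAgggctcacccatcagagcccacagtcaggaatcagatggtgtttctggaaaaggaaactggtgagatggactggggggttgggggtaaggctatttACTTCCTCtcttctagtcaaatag
Fcer1g, chr1:171234350-171234599, minus strand: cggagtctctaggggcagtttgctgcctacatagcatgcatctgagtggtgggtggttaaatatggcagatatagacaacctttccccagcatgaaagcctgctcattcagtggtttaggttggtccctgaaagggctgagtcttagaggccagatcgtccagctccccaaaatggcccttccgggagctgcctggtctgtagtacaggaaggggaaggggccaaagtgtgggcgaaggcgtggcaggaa

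In the Pirb window GAGGAAGT begins 120 bases before the start on the strand of the gene, and in the Fcgr4 window it lies on the opposite strand, within 24 bases of the start. Spi1 itself stood at 217, 194 and 170 CPM in S34F, against 120, 131 and 134 CPM in WT. It rose 1.51-fold (log2 0.60 ± 0.12, SE, edgeR adjusted p = 0.0491), and was not called with WT replicates 2 and 3 summed (adjusted p = 0.192) or with the GC trend removed (adjusted p = 0.131). Whether Spi1 or these motifs had a part in the members' values was not tested.

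The other genes of the pathway were described from 9 lists, with 118 listed genes matched and 5 not, and 69 tested. Of the 69, 3 rose, 1 fell and 65 did not pass the test, or 5.80% called against 2.18% of all genes tested. Their median log2 fold change was 0.28, against 0.00 over all genes tested. Above 0 were 46 of the 69, where 50.1% of all genes tested were. An unadjusted p under 0.05 by edgeR was found in 25 of the 69 and in 2958 of all 13444 genes tested. DESeq2 called 9.04% and limma-voom 2.01% of all genes tested, shares to set beside the calls per list below. The lists were drawn up with results of these data known, so their counts are no independent support.

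Receptors that use the ITAM adaptors were few and mostly low. Of 19 receptors that signal through Tyrobp, 11 had no count in any library and 6 could be tested. All 6 had a positive log2 fold change, with a median of 1.11, and none passed edgeR (the unadjusted p was under 0.05 in 2; calls numbered 2 with DESeq2, 1 with limma-voom). Pilrb1, an activating paired receptor, came nearest, at 14.5, 26.1 and 18.9 CPM in S34F and 8.99, 3.35 and 2.65 CPM in WT, 1.99 ± 0.44 apart on the log2 scale (SE, n = 3 per group, edgeR adjusted p = 0.0574).

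Of the receptors listed for Fcer1g, 11 were matched and 5 tested. All 5 had a positive log2 fold change, with a median of 1.32, and 0 passed edgeR (the unadjusted p was under 0.05 in 3; calls numbered 2 with DESeq2, 0 with limma-voom). Clec4n (Dectin-2), a lectin that binds fungal mannans, stood at 12.9, 12.6 and 3.58 CPM in S34F, against 2.92, 1.12 and 1.08 CPM in WT (log2 2.52 ± 0.56, SE, n = 3 per group, edgeR adjusted p = 0.0593). Its S34F libraries lay above all WT libraries, but S34F replicate 3 was close to WT replicate 1. Fcer1a, the alpha chain of the IgE receptor, was at 0 in every library.

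Other chains listed as ITAM-bearing were scarce. Of 8, Cd3e and Cd3g were at 0 and 2 could be tested, of which 0 passed edgeR, DESeq2 or limma-voom (2 had an unadjusted p under 0.05 by edgeR). Nfam1 stood at 57.8, 52.0 and 44.5 CPM in S34F, against 35.2, 42.5 and 43.6 CPM in WT (log2 0.35 ± 0.14, SE, n = 3 per group, edgeR adjusted p = 0.196). The ITAM pattern given above found no match in the 224 codons of Nfam1. The groups lay close together, with S34F replicate 3 just above WT replicate 3. The lectin receptors with a hemITAM were at or near 0, and 0 of 3 could be tested.

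Of the 4 chains of the interleukin-3 and GM-CSF receptors, Csf2ra rose and 3 did not pass the test. Csf2ra, the GM-CSF receptor alpha chain, stood at 83.2, 73.1 and 62.4 CPM in S34F, against 42.0, 41.2 and 39.3 CPM in WT, a 1.79-fold rise (log2 0.84 ± 0.13, SE, n = 3 per group, edgeR adjusted p = 0.0248). All 3 S34F libraries were above WT.

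The SRC family kinases and their regulators, which act before Syk, did not pass the test in any of 5 tested genes by edgeR, DESeq2 or limma-voom, and 0 had an unadjusted p under 0.05 by edgeR. Ptprj, the phosphatase CD148, differed by -0.22 ± 0.20 on the log2 scale (SE, n = 3 per group, edgeR adjusted p = 0.567).

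Of 23 tested genes that act with or after Syk, 1 rose and 22 did not pass the test, with 13 above 0 and a median log2 fold change of 0.06. The gene that rose was Vav2, a guanine nucleotide exchange factor, at 43.7, 40.7 and 30.3 CPM in S34F and 18.5, 19.6 and 19.0 CPM in WT. Its groups did not overlap and the fold change was 2.01 (log2 1.01 ± 0.16, SE, n = 3 per group, edgeR adjusted p = 0.0257).

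Among 12 tested receptors listed as inhibitory receptors with an ITIM, 1 rose and 11 did not pass the test, with a median log2 fold change of 0.64. Cd33, a sialic acid-binding receptor of myeloid cells, stood at 90.3, 152 and 62.5 CPM in S34F, against 29.5, 20.6 and 20.7 CPM in WT. It rose 4.31-fold (log2 2.11 ± 0.31, SE, n = 3 per group, edgeR adjusted p = 0.0211), with S34F replicate 2 highest and replicate 3 lowest, as in Pirb and Fcgr2b. The only match of the ITIM pattern in the principal mouse Cd33 isoform began at codon 43 of 334, near its start, so its place on this list rests on the list and not on a match near the end of the protein.

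Of the 12 inhibitory phosphatases and adaptors, 1 fell and 11 did not pass the test, with a median log2 fold change of -0.11. Sla2, an adaptor that dampens signals of immune receptors, stood at 16.7, 20.4 and 16.5 CPM in S34F, against 31.7, 35.7 and 38.2 CPM in WT. It was 1.97-fold lower (log2 -0.98 ± 0.15, SE, n = 3 per group, edgeR adjusted p = 0.0216). With WT replicates 2 and 3 summed, Csf2ra, Vav2, Cd33 and Sla2 were not called (adjusted p = 0.116, 0.110, 0.108 and 0.107).

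**Figure D5:**
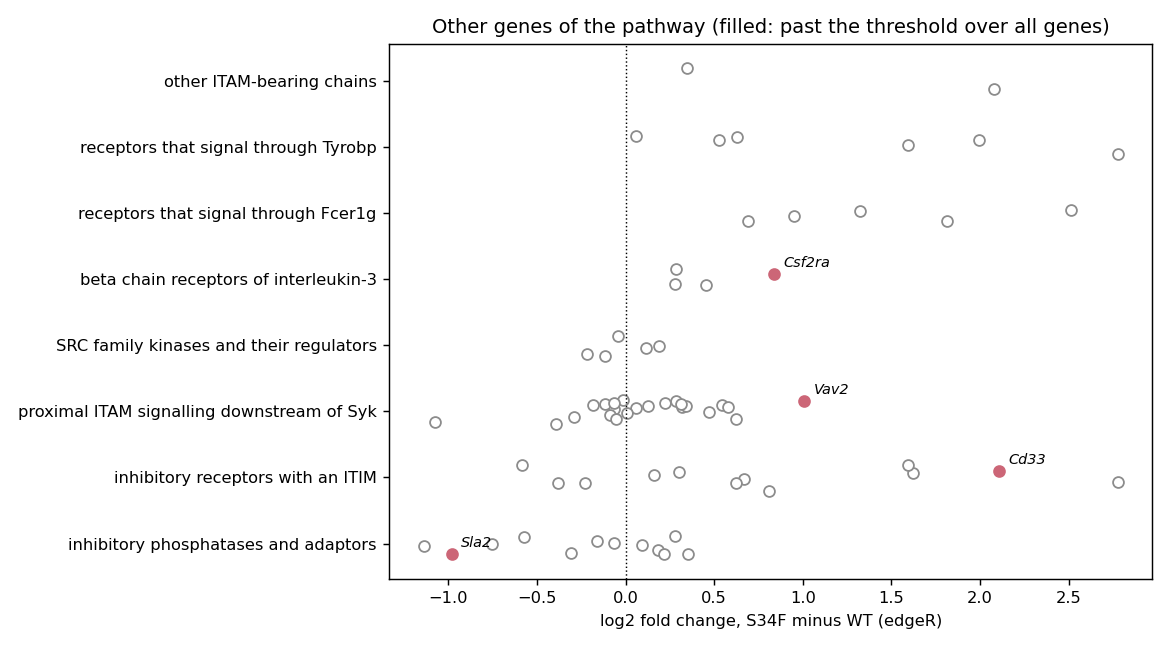
Log2 fold change of every tested gene in the lists of the pathway, one row per list, with called genes filled and named and points spread vertically for legibility. The receptors for Tyrobp and Fcer1g have medians of 1.11 and 1.32, and genes acting with or after Syk have a median of 0.06.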

How the data were processed

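RNA of 6 libraries, 3 per group, was analysed. Per the submitters' processing notes, HISAT2 and featureCounts were used with mm10; their versions, the strand setting and the handling of multiply mapped reads were not given in the sources used here. The deposited values are raw counts per gene. They were analysed in R 4.3.3 with edgeR 4.0.16 (filterByExpr, TMM, robust quasi-likelihood test, Benjamini-Hochberg adjustment over 13444 of 54532 genes); DESeq2 1.42.0 and limma 3.58.1 (voom) were alternatives. Total counts were 16509899 to 19129250 per library. Intervals of summed counts cover counting error only. The edgeR steps were tested on simulated data.

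The members and the gene lists were chosen with earlier results of these data known. All 10 members are described; of each list, the called genes with the smallest p, at most 4, or else the gene with the smallest p, are named. Clec4n was named by this rule, while Lilrb4a and Lilrb4b were named outside it. Marker genes followed no such rule, and some of them, such as Adgre1 and Gata2, are not given. GENCODE M21 gave coordinates, exon lengths and transcripts, and RefSeq (GRCm38.p6) the windows before gene starts. Alternatives were other scalings, filters, tools, a replicate block, GC correction, summed WT replicates 2 and 3, summed relatives, leaving out each library and, chosen after seeing the data, the longest transcript as length.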

Additional observations from a re-analysis of the deposited data

How the results depend on the processing

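Over 18 alternatives the members gave 161 log2 fold changes, of which 142 kept their direction and side of the threshold, 15 lost the call, 4 gained it and 0 changed sign. Tyrobp, Fcer1g and Tarm1 were called in all 18. Of all genes tested, 293 were called; DESeq2 called 1216, removal of the GC trend 159, WT replicates 2 and 3 summed 20, both together 15, and no count filter 763. Leaving out a library gave 19 to 1177 (the lowest without WT replicate 2, the highest without WT replicate 1); the count was 20 when S34F replicate 1 was dropped, 22 for WT replicate 3 and 50 for S34F replicate 3. Of the members 5 were called; 3 were with WT replicates 2 and 3 summed, with and without the GC trend removed, and 3 to 5 when a library was left out. Of the pathway genes 4 were called; DESeq2 called 16, no count filter 10, and WT replicates 2 and 3 summed 0 by edgeR, with and without the GC trend removed (19 and 18 at an unadjusted p under 0.05 without and with that removal). Over all 13815 genes tested in these summed fits, 1793 and 1538 had such a p, in the same order. Leaving out a library gave 0 to 12 pathway genes, with 0 without S34F replicate 1, WT replicate 2 or WT replicate 3. There 26, 19 and 20 pathway genes had an unadjusted p under 0.05 by edgeR. Of all genes tested in these fits, 2216 of 13811, 1769 of 13775 and 1771 of 13717 did. The cause was not tested.

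Nothing in the labels says that a replicate number marks a shared culture or day, so the numbers were not taken to pair libraries. Libraries with the same number correlated in their deviations from the group means at 0.32, 0.154 and 0.0656, the first being the highest of all pairs. WT replicates 2 and 3 were hardly told apart, at 0.154 and 0.149 with S34F replicate 2 and 0.0755 and 0.0656 with S34F replicate 3. These values therefore cannot decide whether the libraries were paired. With a replicate block 1418 of all genes, 16 pathway genes and 5 members were called, Fcgr1 no longer and Fcgr3 newly among them. Fcgr3 and Fcgr4 were limited by depth, since 3 counts were 0.156 to 0.182 CPM. With the longest transcript as the length, chosen after seeing the data, the mean ratios of Tyrobp over Fcer1g moved to 1.015 in S34F and 0.662 in WT.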

Other observations

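Lilrb4a and Lilrb4b, from the list of inhibitory receptors with an ITIM, did not follow the groups. No motif match is given for either, so that role rests on the list. Lilrb4a stood at 144, 306 and 345 CPM in S34F, against 353, 82.4 and 80.9 CPM in WT. Lilrb4b stood at 116, 243 and 335 CPM in S34F, against 309.9, 39.9 and 46.3 CPM in WT. In both genes WT replicate 1 lay in the range of S34F replicates 2 and 3 or above it, and neither passed the edgeR test (adjusted p = 0.616 and 0.615).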
